A study of Homo sapiens with 4 samples.

Results

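NRF2, its inhibitor KEAP1 and 7 enzymes and transporters that NRF2 is known to induce (HMOX1, NQO1, GCLC, GCLM, TXNRD1, SRXN1 and SLC7A11) were followed in MDA-MB-231 cells, a mesenchymal-like human breast cancer line, after blockade of TEAD palmitoylation. The 9 genes were chosen by symbol from the 48162 genes of the deposited table, where they occupied 10 entries because SRXN1 was listed under 2 gene identifiers. MDA-MB-231 cells received MGH-CP1, a small-molecule inhibitor of TEAD autopalmitoylation, for 24 h (2 libraries), or vehicle control, named DMSO in the table, for the same time (2 libraries). The labels give the dose of MGH-CP1 as 10 µM, whereas the methods give it as 10 mM. The labels name no genetic change, and both groups were grown in the same serum-containing medium.

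NRF2, the protein product of NFE2L2, is a transcription factor that is held in the cytoplasm and marked for degradation by KEAP1, the substrate adaptor of a CUL3 ubiquitin ligase. Oxidants and electrophiles modify cysteines of KEAP1, NRF2 then accumulates, pairs with a small MAF protein and binds antioxidant response elements near genes for glutathione synthesis, thioredoxin reduction, quinone detoxification, heme breakdown and NADPH supply. Much of this control acts on the NRF2 protein, so that mRNA of NFE2L2 itself is a poor measure of the activity of the pathway.

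In the 4 libraries, mRNA of this pathway changed unevenly. NQO1, the quinone reductase that is widely used as a readout of NRF2, was 39.0% higher after MGH-CP1, and TXNRD1, the cytosolic thioredoxin reductase, was 15.4% higher. SLC7A11, the transport chain of the cystine importer, fell by 27.9%. The mRNA of NFE2L2, KEAP1, GCLC, GCLM and HMOX1 did not pass the test, and SRXN1 was too low to be tested. HMOX1, 23.3% higher, lay just outside the threshold (limma adjusted p = 0.0532).

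The deposited values are FPKM (fragments per kilobase of gene length, scaled to library size), and multiplication by gene length gave back whole fragments. The libraries held between 17577930 and 25508824 fragments on listed genes, with fewer in both MGH-CP1 libraries. Genes of the mitochondrial chromosome took 0.447% and 0.418% of the fragments in the vehicle control and 1.57% and 1.53% after MGH-CP1, so that this share, like the depth, separated the conditions. The part of either difference in the results was not tested. VIM, CD44 and MSN, which mark this line, lay between 198 and 341 FPKM in all libraries, and AXL, a further marker, had a mean of 283 FPKM in the vehicle control and 168 FPKM after MGH-CP1. ESR1 and PGR were at most 0.0243 FPKM and CDH1 at most 0.638 FPKM, whereas ERBB2 lay between 24.7 and 28.4 FPKM and the luminal markers EPCAM and GATA3 between 4.17 and 16.4 FPKM, with FOXA1 at most 0.0275 FPKM. The leukocyte markers CD3E, CD68 and PTPRC and the endothelial markers CDH5 and VWF were at most 0.0321 FPKM. CYR61, a direct TEAD–YAP target, had 368 and 383 FPKM in the vehicle control libraries and 216 and 229 FPKM after MGH-CP1. All 5 TEAD–YAP target genes of a list written for this check were called lower (median log2 fold change -0.66). Over all genes tested, 23.8% were called lower and the median was 0.01. The list was written with earlier results of these data known. Nothing in the labels says that the libraries came from separate cultures, so p-values measure only the spread between these libraries, which may be technical. In bulk RNA, fewer cells that express a gene and less RNA per cell cannot be told apart.

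Promoter sequence was looked up to show which members carry the letters of an antioxidant response element close to their start. RefSeq windows (GRCh38.p14) of 250 bases before the transcription start matched 7 of the 9 members, with 10 windows in all. No window was available for HMOX1 or for SLC7A11, the member called lower, so neither was searched. The core of the element was searched as TGACNNNGC on both strands. It was found in 4 of the 10 windows, against 10.9% of the 35116 windows of all genes: in the window of GCLM, in both windows of TXNRD1, and in the second of 2 windows of KEAP1, which held it on either strand. Windows of the same gene are not independent, and most members were chosen as genes that NRF2 is known to induce. These shares were not compared by a test. The windows of TXNRD1 on the plus strand at chr12:104215529-104215778 and chr12:104286782-104287031, of GCLM on the minus strand at chr1:93909431-93909680, and of NQO1 on the minus strand at chr16:69726561-69726810 are printed in the direction of transcription, with the core in capitals (on the opposite strand, its reverse complement). They show the member with the highest level, a subunit of glutamate-cysteine ligase that did not pass the test, and the member that rose most.
TXNRD1 upstream window: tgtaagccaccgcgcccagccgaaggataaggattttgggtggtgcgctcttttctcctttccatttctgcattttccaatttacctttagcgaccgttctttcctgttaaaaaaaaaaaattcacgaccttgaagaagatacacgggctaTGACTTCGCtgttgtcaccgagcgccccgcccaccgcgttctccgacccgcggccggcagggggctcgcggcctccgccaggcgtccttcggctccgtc
TXNRD1 downstream window: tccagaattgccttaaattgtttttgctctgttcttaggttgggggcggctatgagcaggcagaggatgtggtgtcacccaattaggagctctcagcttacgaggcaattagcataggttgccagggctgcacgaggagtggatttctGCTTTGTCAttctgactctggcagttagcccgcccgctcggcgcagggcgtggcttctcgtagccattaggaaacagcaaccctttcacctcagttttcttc
GCLM window: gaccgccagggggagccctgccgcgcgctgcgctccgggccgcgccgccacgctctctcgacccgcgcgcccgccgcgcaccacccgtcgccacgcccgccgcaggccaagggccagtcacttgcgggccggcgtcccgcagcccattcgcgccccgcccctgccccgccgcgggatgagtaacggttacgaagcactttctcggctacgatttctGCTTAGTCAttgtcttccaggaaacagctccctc
NQO1 window: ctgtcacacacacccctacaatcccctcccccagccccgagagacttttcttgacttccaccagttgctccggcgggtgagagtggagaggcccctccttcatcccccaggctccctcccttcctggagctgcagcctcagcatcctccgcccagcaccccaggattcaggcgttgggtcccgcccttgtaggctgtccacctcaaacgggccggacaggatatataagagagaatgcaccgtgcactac

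In GCLM the match lay 34 to 26 bases before the start, on the opposite strand, and read TGACTAAGC. The same letters stood 31 to 23 bases before a start of KEAP1. In TXNRD1 the matches lay 99 to 91 bases before the upstream start, as TGACTTCGC, and 102 to 94 bases before the downstream start, as TGACAAAGC on the opposite strand. The NQO1 window held no match, which says only that these letters are not in this window. The letters of an AP-1 site, TGANTCA, were in none of the 10 windows, against 6.57% of all windows; a TGACNNNGC match whose variable letters are TCA would count as both. The TEAD letters GGAATG stood in the SRXN1 window only, against 11.9% of all windows. A match of letters is a description and not a bound site.

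The order of the levels was the same at the top in both conditions. TXNRD1 was by far the most abundant member and made up 54.5% of the summed FPKM of the 9 genes in the vehicle control libraries and 56.0% after MGH-CP1. In the vehicle control it was followed by NQO1 (mean 60.7 FPKM), NFE2L2 (52.1 FPKM), KEAP1 (40.2 FPKM) and GCLM (27.8 FPKM), with no overlap between neighbours. HMOX1, SLC7A11 and GCLC formed a lower group between 9.04 and 10.4 FPKM, in which neighbours overlapped between libraries. After MGH-CP1 these 3 genes no longer overlapped, with HMOX1 above GCLC and GCLC above SLC7A11. These are levels per gene length, and no difference in level between genes was tested.

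**Figure D1:**
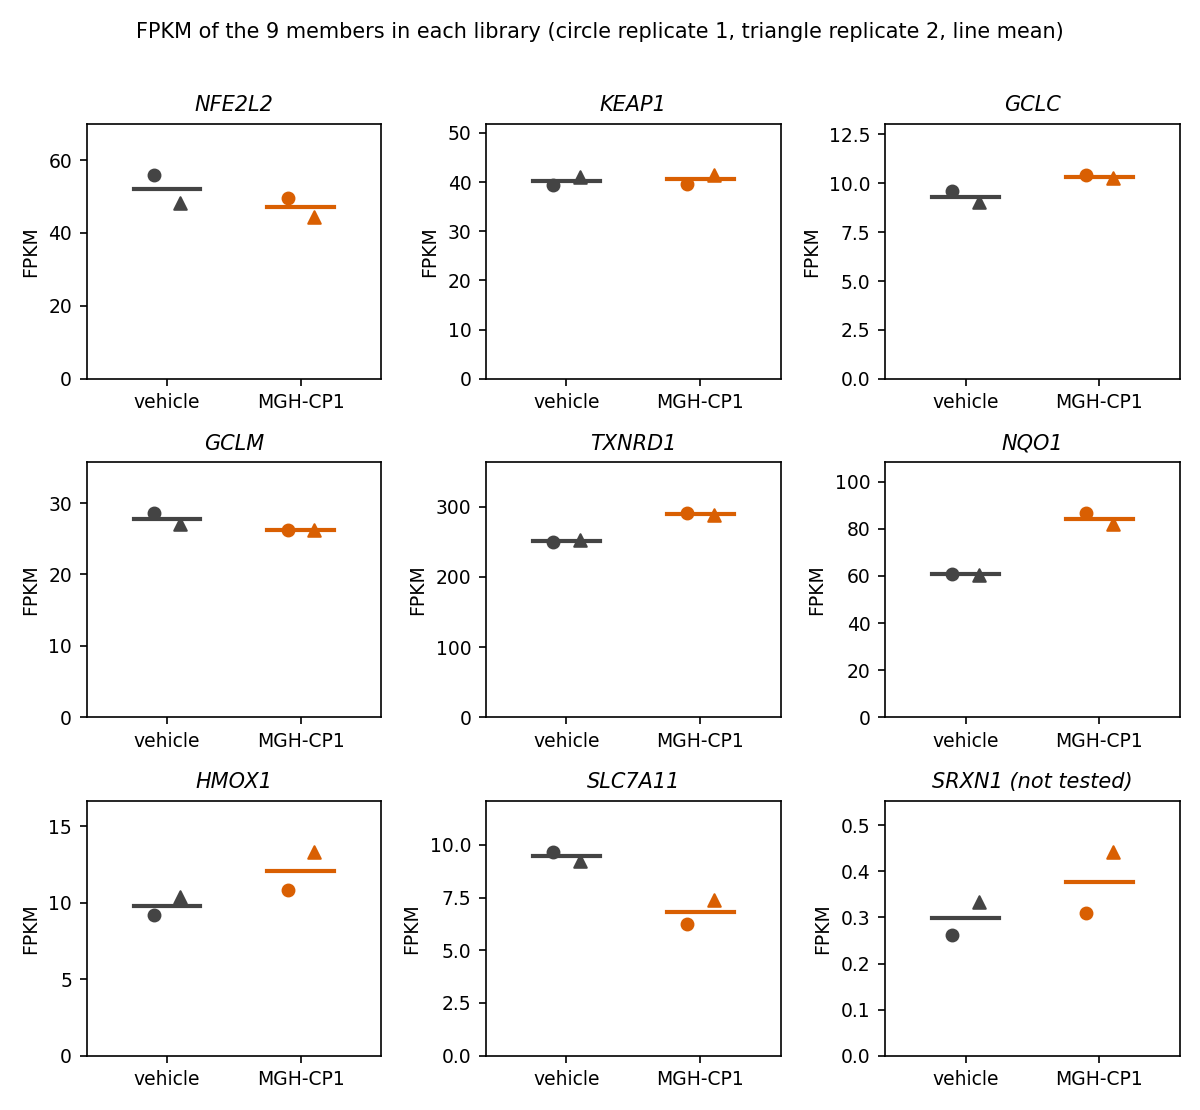
FPKM of each member (vertical axis, linear from 0, its own scale in each panel) in the vehicle control and MGH-CP1 libraries, with a circle for replicate 1, a triangle for replicate 2 and a line for the mean. NQO1, TXNRD1, HMOX1 and GCLC were higher in both MGH-CP1 libraries, as were 39.8% of all genes tested. SLC7A11 and GCLM were lower in both, as were 37.4% of all genes tested. NFE2L2, KEAP1 and SRXN1 overlapped between conditions.

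The comparison of MGH-CP1 with vehicle control asked which of these mRNAs changed when TEAD was blocked. The 12080 genes with a mean of at least 1 FPKM were tested with limma on log2(FPKM + 1), a scale that understates changes of low genes, and calls were made at a Benjamini-Hochberg adjusted p under 0.05 over all of them. Of the 8 members tested, 2 were called higher, where 27.1% of all genes tested were, and 1 was called lower, where 23.8% of all genes were. With 8 genes these counts are not set apart from those shares and are no result about the members as a set. The median log2 fold change of the 8 members was 0.07, and that of all genes tested was 0.01. In either direction 3 of the 8 were called, where 50.8% of all genes were. Both MGH-CP1 libraries lay above both vehicle control values for 4 members (39.8% of all genes) and under both for 2 (37.4% of all genes), and 2 members overlapped. The exact permutation test of 1 gene has a smallest p of 0.333 with these libraries, and the calls depended on variance borrowed from other genes.

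**Figure D2:**
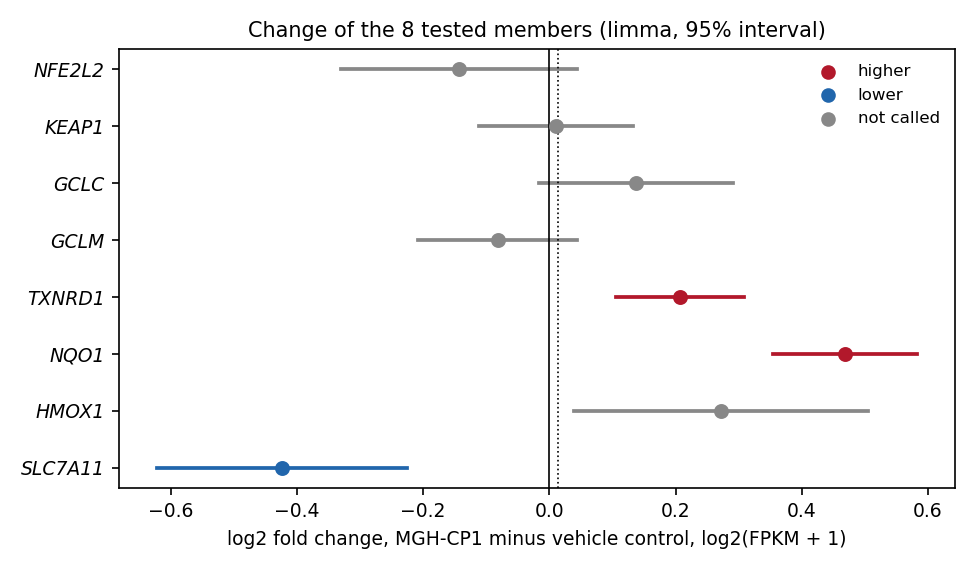
Log2 fold change of the 8 tested members on the log2(FPKM + 1) scale (horizontal axis, MGH-CP1 minus vehicle control), with points for the estimate, bars for the 95% interval from limma before adjustment, and colour for the call at an adjusted p under 0.05. NQO1 (0.47) and TXNRD1 (0.21) lie to the right of 0 and SLC7A11 (-0.42) to the left, and the dotted line marks the median of all genes tested (0.01).

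The regulator and its inhibitor were described first. NFE2L2 (ENSG00000116044, chromosome 2 from 178092323 to 178257425, minus strand, hg19) had 55.9 and 48.2 FPKM in the vehicle control libraries and 49.6 and 44.4 FPKM after MGH-CP1. The conditions overlapped, since MGH-CP1 replicate 1 lay above vehicle control replicate 2. The log2 fold change was -0.14 (standard error, SE, 0.08, limma adjusted p = 0.174), with a 95% interval from -0.33 to 0.04. The size of the change depended on single libraries: without vehicle control replicate 2 it was -0.25 (limma adjusted p = 0.0173), and without vehicle control replicate 1 it was -0.04 (limma adjusted p = 0.719). The listed region of NFE2L2 also overlaps AGPS on the opposite strand, a gene with up to 3501 fragments in a library, and whether the counting used the strand is not given in the sources used here.

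KEAP1 (ENSG00000079999, chromosome 19 from 10596796 to 10614417, minus strand) had 39.4 and 41.1 FPKM in the vehicle control libraries and 39.6 and 41.5 FPKM after MGH-CP1. All 4 values lay within a narrow band, and 97.5% of the genes tested had a larger absolute change. The log2 fold change was 0.01 (SE 0.05, limma adjusted p = 0.884), with a 95% interval from -0.11 to 0.13. Relative to KEAP1, NFE2L2 stood at 1.42 and 1.17 without and at 1.252 and 1.07 with MGH-CP1, ratios that overlapped (exact permutation test, two-sided, p = 0.667).

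Glutamate-cysteine ligase, which makes the dipeptide from which glutathione is completed, consists of the catalytic subunit GCLC and the modifier subunit GCLM. GCLC (ENSG00000001084, chromosome 6 from 53362139 to 53481768, minus strand) had 9.59 and 9.04 FPKM in the vehicle control libraries and 10.4 and 10.2 FPKM after MGH-CP1. GCLM (ENSG00000023909, chromosome 1 from 94350761 to 94374966, minus strand) had 28.6 and 27.0 FPKM and then 26.2 and 26.2 FPKM. The values of GCLC were higher in both MGH-CP1 libraries and those of GCLM lower in both. Neither passed the test: the log2 fold change was 0.14 for GCLC (SE 0.07, limma adjusted p = 0.119) and -0.08 for GCLM (SE 0.05, limma adjusted p = 0.241).

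Since a ratio within a library does not depend on the scaling between libraries, both subunits were also compared with each other. GCLM over GCLC was 2.98 and 2.99 in the vehicle control against 2.51 and 2.55 after MGH-CP1. The ratio was lower in both MGH-CP1 libraries, by 0.24 on the log2 scale, against an SD between replicates of at most 0.02 on that scale (n = 2). The exact permutation p was 0.333, the smallest possible (two-sided, 0.5 after adjustment over the 3 ratios computed). An interval that covers counting error only ran from -0.35 to -0.12, since GCLC had between 687 and 931 fragments in a library. The 2 listed genes that overlap GCLC held 0 fragments in all libraries.

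TXNRD1 (ENSG00000198431, chromosome 12 from 104609557 to 104744061, plus strand) keeps thioredoxin reduced at the expense of NADPH. It had 249.8 and 252 FPKM in the vehicle control libraries and 291 and 289 FPKM after MGH-CP1, from 20171 to 25574 fragments in a library. The MGH-CP1 values lay above those of the vehicle control, and the replicates of a condition lay close together. On the log2 scale the change was 0.21 (SE 0.04, limma adjusted p = 0.00534), between 0.20 and 0.21 with each library left out in turn. With quantile normalization, which forces the libraries to the same distribution, it was 0.09 and the adjusted p 0.103, so the call for this highly abundant gene depended on the scaling.

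TXN, the thioredoxin that TXNRD1 reduces, had 350.3 and 349 FPKM in the vehicle control libraries and 335 and 339 FPKM after MGH-CP1. It passed no test, with a log2 fold change of -0.05 (SE 0.04, limma adjusted p = 0.352). TXNRD1 over TXN was thus 0.713 and 0.723 in the vehicle control against 0.867 and 0.852 after MGH-CP1. The log2 ratio was higher by 0.26, with a counting interval from 0.22 to 0.30 and SDs between replicates of at most 0.02 (n = 2, exact permutation p = 0.333, the smallest possible).

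NQO1 (ENSG00000181019, chromosome 16 from 69740899 to 69760854, minus strand) reduces quinones by 2 electrons and so avoids reactive semiquinones. It had 60.9 and 60.4 FPKM in the vehicle control libraries and 86.7 and 82.0 FPKM after MGH-CP1, with 4198 to 4542 fragments in each library. The conditions were well separated, and the distance between them exceeded that between replicates. The log2 fold change was 0.47 (SE 0.05, limma adjusted p = 1.89e-04), and 18.9% of the genes tested had a larger absolute change. With each library left out in turn it stayed between 0.43 and 0.51.

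The genes whose pattern over the 4 libraries lay closest to NQO1, by the Euclidean distance of centred log2(FPKM + 1), were ITGB5 (distance 0.0112), CTSA (0.0215) and EMP1 (0.0235). ITGB5 also had nearly the same level, with 60.6 and 60.6 FPKM in the vehicle control libraries and 86.0 and 82.0 FPKM after MGH-CP1. This is a likeness over 4 values only.

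HMOX1 (ENSG00000100292, chromosome 22 from 35776354 to 35790207, plus strand), the inducible heme oxygenase, had 9.21 and 10.4 FPKM in the vehicle control libraries and 10.8 and 13.3 FPKM after MGH-CP1. The MGH-CP1 values lay above those of the vehicle control, but their own distance was larger than the gap to the vehicle control. Its change was 0.27 (SE 0.10, limma adjusted p = 0.0532), just outside the threshold, with a 95% interval before adjustment from 0.04 to 0.50. Without MGH-CP1 replicate 1 it was 0.41 (adjusted p = 0.0157 from limma) and without vehicle control replicate 2 it was 0.35 (adjusted p = 0.0254 from limma). Without MGH-CP1 replicate 2 it was 0.13 (adjusted p = 0.309 from limma) and without vehicle control replicate 1 it was 0.19 (adjusted p = 0.197 from limma), so that single libraries decided the size and the call. HMOX1 had 355 to 483 fragments in a library, for which counting alone gives an error of up to 5.31%.

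SLC7A11 (ENSG00000151012, chromosome 4 from 139085251 to 139163503, minus strand) exchanges intracellular glutamate for cystine and so feeds glutathione synthesis. It had 9.68 and 9.22 FPKM in the vehicle control libraries and 6.25 and 7.37 FPKM after MGH-CP1. The MGH-CP1 values lay below those of the vehicle control, although their replicates differed more than those of the vehicle control. SLC7A11 was called lower, with a log2 fold change of -0.42 (SE 0.09, limma adjusted p = 0.00431), between -0.53 and -0.32 with each library left out in turn. Without the filter on low values, where many more genes were tested, the change was the same and the adjusted p 0.0582.

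SLC3A2, the heavy chain that brings SLC7A11 and SLC7A5 to the membrane and that is named here after its values were seen, had 88.2 and 95.3 FPKM in the vehicle control libraries and 63.2 and 70.1 FPKM after MGH-CP1. It was called lower at -0.46 on the log2 scale (SE 0.06, limma adjusted p = 7.32e-04). Both chains of the cystine importer were thus lower in both MGH-CP1 libraries.

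SRXN1, the sulfiredoxin that repairs overoxidized peroxiredoxins, could not be followed with these values. Its entry ENSG00000271303 (chromosome 20 from 627259 to 634014, minus strand) had 0.262 and 0.334 FPKM in the vehicle control libraries and 0.309 and 0.443 FPKM after MGH-CP1, from 15 to 23 fragments in a library. Its other entry, ENSG00000234516 (627270 to 629157), lies inside the first and was listed at 0 in all libraries. A further gene model, ENSG00000270299, listed from 627270 to 656444 on the same strand, overlaps both and had at most 2 fragments. How reads shared by overlapping genes were counted is not given in the sources used here, and its part in the level of SRXN1 was not tested. Over the summed libraries the ratio of fragment rates was 1.26, with an exact 95% interval for counting error from 0.781 to 2.02, so that no difference was detectable at this depth.

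Genes around these members were taken from 8 lists, with 127 of 135 genes tested. The lists were written from general knowledge, but with earlier results of these data known. Of these 127 genes 62 were called higher and 28 lower, beside 27.1% and 23.8% of all genes tested. The median log2 fold change was 0.19, and that of all genes 0.01. No list was tested as a set, and the lists were described by their counts and medians only. The part of the choice of lists in these counts and medians was not tested. No gene called in these lists changed sign under any alternative that was run. The filters, the replicate block and the fits without trend or shared variance leave the log2 fold change unchanged. A gene whose libraries do not overlap between conditions also keeps its sign when a library is left out. The constant sign therefore says little about the calls.

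**Figure D3:**
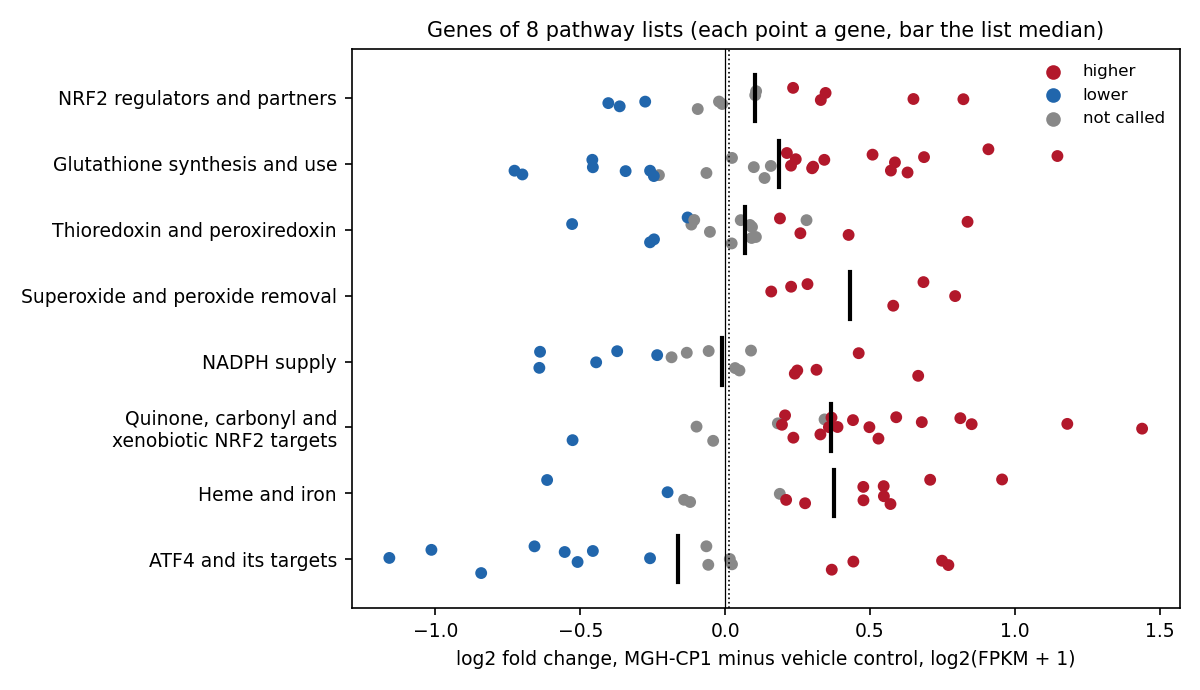
Log2 fold change on the log2(FPKM + 1) scale (horizontal axis, MGH-CP1 minus vehicle control) of each tested gene of 8 pathway lists, with colour for the call at an adjusted p under 0.05, a black bar for the list's median and a dotted line for the median of all genes tested. All 6 genes of superoxide and peroxide removal are called higher. In the list of quinone, carbonyl and xenobiotic NRF2 targets 16 of 21 are called higher and 1 lower. In the ATF4 list 8 of 16 genes are called lower and 4 higher. Over all genes tested, 27.1% are called higher and 23.8% lower. Without variance shared between genes, the 8 lists have 0 calls but for 1 glutathione gene called lower.

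Among regulators and partners of NRF2, 5 of the 13 genes tested were called higher and 3 lower (median log2 fold change 0.10). That is 38.5% and 23.1%, beside 27.1% and 23.8% of all genes tested. SQSTM1, also known as p62, an autophagy receptor that can bind KEAP1 and draw it away from NRF2, had 75.8 and 80.0 FPKM in the vehicle control libraries and 142 and 135 FPKM after MGH-CP1. SQSTM1 rose by 0.82 on the log2 scale (SE 0.05, limma adjusted p = 2.69e-05), the largest rise of the list, and its level was also the highest. SQSTM1 overlaps C5orf45 and MGAT4B on the opposite strand, of which the more abundant held up to 6499 fragments. MAFK, a small MAF protein that dimerizes with NRF2, rose by 0.65 (SE 0.07, limma adjusted p = 1.69e-04), from 6.32 and 6.52 to 10.6 and 10.7 FPKM.

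The other small MAF genes, named after their values were seen, were also called higher, MAFG with a log2 fold change of 0.35 and MAFF with 0.33. Called lower were PALB2, a repair protein that can compete with NRF2 for KEAP1 (-0.40, adjusted p = 0.0112 from limma), CREBBP, an acetyltransferase and coactivator (-0.36, adjusted p = 0.00182 from limma), and, named after its values were seen, CUL3, the scaffold of the KEAP1 ligase (-0.28, adjusted p = 0.0101 from limma). BACH1, the repressor that competes with NRF2 for its sites and that was also named after its values were seen, had 13.1 and 11.6 FPKM in the vehicle control libraries and 13.5 and 13.2 FPKM after MGH-CP1 (adjusted p = 0.261 from limma). Without vehicle control replicate 1, 1 gene of this list was called lower in place of 3, and likewise 1 without the filter on low values.

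Among genes of glutathione synthesis and use, 13 of 26 were called higher and 7 lower (median 0.19). These are 50% and 26.9%, where 27.1% and 23.8% of all genes tested were called. GGT1, which cleaves extracellular glutathione, rose most, from 2.73 and 3.29 to 8.53 and 7.24 FPKM (log2 fold change 1.15, adjusted p = 1.06e-04 from limma). GLRX, the cytosolic glutaredoxin, followed with 5.34 and 5.06 FPKM in the vehicle control libraries and 10.9 and 10.4 FPKM after MGH-CP1 (0.91, adjusted p = 5.66e-05 from limma). GGT1 has near-identical relatives and overlaps SNRPD3, and GLRX overlaps RHOBTB3 on the opposite strand, which held up to 8937 fragments, so these values are uncertain where reads could have been shared. The largest falls were those of GGCT, an enzyme of the gamma-glutamyl cycle (-0.73), and CHAC2, which degrades glutathione (-0.70). GPX1, the most abundant gene of the list, had 223 and 239 FPKM and then 248.6 and 259 FPKM (0.14, adjusted p = 0.0578 from limma).

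**Figure D4:**
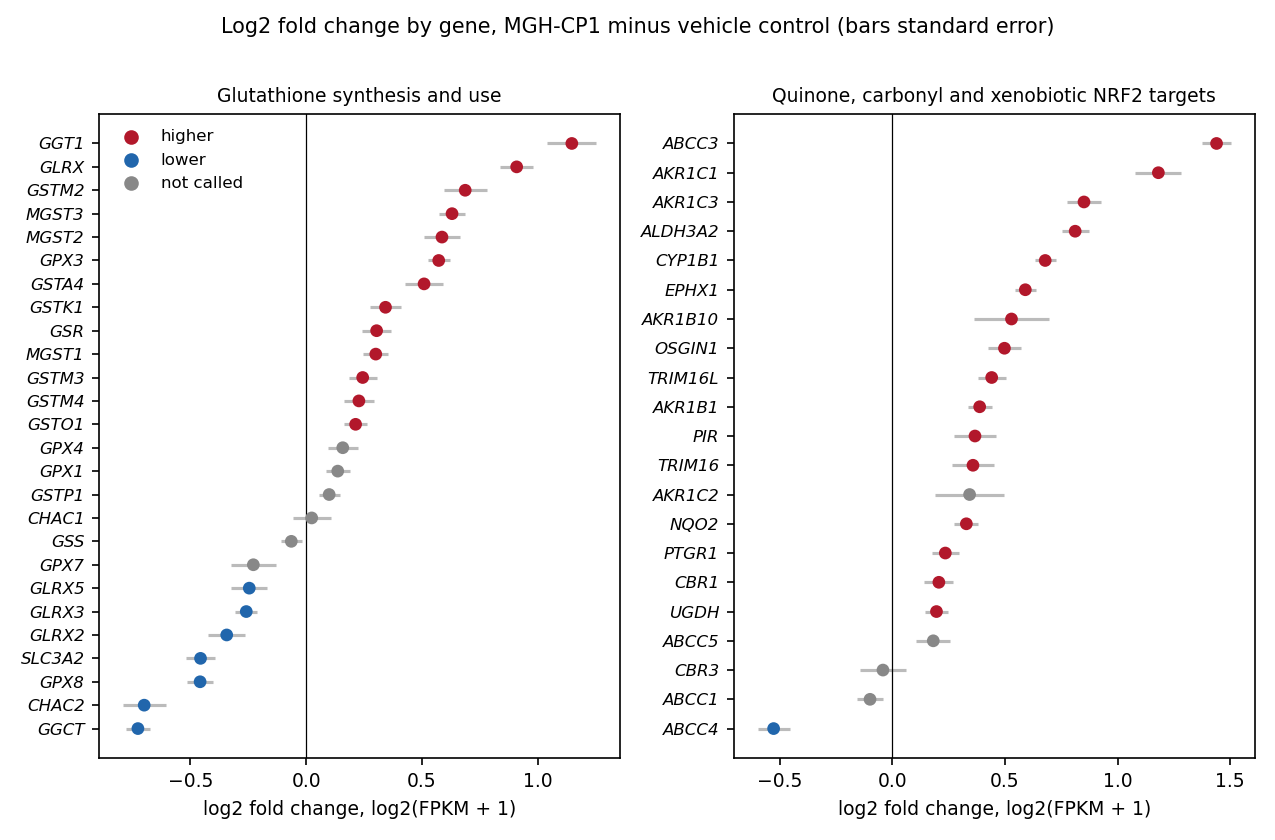
Log2 fold change on the log2(FPKM + 1) scale by gene (horizontal axis, MGH-CP1 minus vehicle control, bars for the standard error) for glutathione genes on the left and quinone, carbonyl and xenobiotic targets on the right, with colour for the call at an adjusted p under 0.05. GGT1 (1.15) and GGCT (-0.73) mark the ends of the left panel, and ABCC3 (1.44) and ABCC4 (-0.53) those of the right.

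In the thioredoxin and peroxiredoxin list 4 of 18 genes were called higher, 4 lower and 10 did not pass the test (median 0.07). Either share, 22.2%, lay near that of all genes tested (27.1% higher and 23.8% lower). PRDX5, a peroxiredoxin of mitochondria, peroxisomes and cytosol, rose from 76.2 and 89.2 to 151 and 145 FPKM (log2 fold change 0.84, adjusted p = 8.24e-05 from limma). The methionine sulfoxide reductases parted, with MSRB2 higher (0.43) and MSRB3 lower (-0.53). SESN2 was also lower (-0.26, adjusted p = 0.0354 from limma). The counts of this list were the least settled: without vehicle control replicate 1 or MGH-CP1 replicate 1, 2 genes were called higher, and with any 1 library left out 1 or 2 genes were called lower, 1 in the fit without MGH-CP1 replicate 1. Without the filter on low values, 2 were called higher and 2 lower.

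All 6 genes of superoxide and peroxide removal were called higher (median 0.43), where 27.1% of all genes tested were. CCS, the chaperone that loads copper onto SOD1, had 11.5 and 13.5 FPKM in the vehicle control libraries and 22.8 and 21.9 FPKM after MGH-CP1 (log2 fold change 0.79, adjusted p = 1.33e-04 from limma). SOD3, the extracellular superoxide dismutase, rose by 0.68 and SOD1, the most abundant of the list, by 0.16 (adjusted p = 6.10e-04 and 0.0456 from limma). CAT, the peroxisomal catalase, named after its values were seen, had 35.2 and 34.1 FPKM and then 52.8 and 51.7 FPKM (0.58, adjusted p = 7.65e-05 from limma). With each library left out in turn, 4 to 5 of the 6 genes were called higher, and without the filter on low values 3 were.

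Among enzymes that supply NADPH, the reductant used by TXNRD1 and NQO1, 5 of 16 were called higher, 5 lower and 6 did not pass (median -0.01). Either share, 31.25%, lay near that of all genes tested (27.1% higher and 23.8% lower). The counts are therefore no result about these enzymes as a set. IDH1, the cytosolic isocitrate dehydrogenase, rose from 29.9 and 30.4 to 50.3 and 46.6 FPKM (log2 fold change 0.67, adjusted p = 7.04e-05 from limma). The folate enzymes MTHFD2 and MTHFD1 fell, both by 0.64 on the log2 scale. TALDO1, the most abundant of the list, had 149 and 157 FPKM in the vehicle control libraries and 162 and 155 FPKM after MGH-CP1, which overlapped.

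In the list named quinone, carbonyl and xenobiotic NRF2 targets, 16 of 21 genes were called higher and 1 lower (median 0.37). That is 76.2% and 4.76%, beside 27.1% and 23.8% of all genes tested. The name is that of the list: not each gene, such as CYP1B1 (0.68, called higher), is an established NRF2 target. ABCC3, an exporter of glucuronide conjugates, had 11.5 and 12.5 FPKM in the vehicle control libraries and 35.4 and 33.1 FPKM after MGH-CP1 (log2 fold change 1.44, SE 0.06, adjusted p = 9.55e-06 from limma). AKR1C1, an aldo-keto reductase, rose from 2.43 and 2.44 to 7.47 and 6.15 FPKM (1.18, adjusted p = 7.91e-05 from limma), though reads could have been split between it and its close paralogs AKR1C2 and AKR1C3. AKR1B1, the most abundant of the list, rose by 0.39 (adjusted p = 6.63e-04 from limma). The exporter ABCC4 was the gene called lower (-0.53, adjusted p = 6.08e-04 from limma). Without MGH-CP1 replicate 1, 10 of the 21 genes were called higher.

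In the heme and iron list, which holds the enzymes upstream and downstream of HMOX1, 9 of 14 genes were called higher and 2 lower (median 0.38). The shares were 64.3% and 14.3%, beside 27.1% and 23.8% of all genes tested. SLC40A1, the iron exporter ferroportin, rose from 3.90 and 3.26 to 7.96 and 7.77 FPKM (log2 fold change 0.96, adjusted p = 1.19e-04 from limma), and PPOX, an enzyme of heme synthesis that overlaps B4GALT3, rose by 0.71. The transferrin receptor TFRC, which takes up iron, fell from 92.4 and 95.4 to 58.6 and 63.5 FPKM (-0.61, adjusted p = 8.95e-05 from limma). FTL, the ferritin light chain, was by far the most abundant of these genes, with 1746 and 1772 FPKM in the vehicle control libraries and 2529.6 and 2372 FPKM after MGH-CP1 (0.48, adjusted p = 2.80e-04 from limma); it has processed copies in the genome that could share its reads. BLVRA and BLVRB, the biliverdin reductases, named after their values were seen, rose by 0.57 and 0.55. Without MGH-CP1 replicate 1, 1 gene was called lower.

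SLC7A11 is also induced by ATF4, the transcription factor of the amino acid response, and genes of that response were listed beside it. Of 16 genes, 8 were called lower (50%) and 4 higher (25%), beside 23.8% and 27.1% of all genes tested (median -0.16). The list shares SESN2 with the thioredoxin list and SLC3A2 and CHAC1 with the glutathione list. SESN2 and SLC3A2 were called lower, so they count in both. SLC7A5, which pairs with SLC3A2 to import leucine, was the most abundant and fell most, from 183 and 189 to 75.5 and 90.3 FPKM (log2 fold change -1.16, adjusted p = 3.26e-05 from limma). PSAT1, of serine synthesis, fell from 71.5 and 73.1 to 32.7 and 38.1 FPKM (-1.01, adjusted p = 3.83e-05 from limma). DDIT4 (0.77) and VLDLR (0.75) rose. The mRNA of ATF4 itself, named after its values were seen, had 87.7 and 96.3 FPKM in the vehicle control libraries and 89.9 and 96.1 FPKM after MGH-CP1 (0.02, adjusted p = 0.841 from limma), which overlapped.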

How the data were processed

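The authors treated MDA-MB-231 cells and isolated total RNA. Novogene made the libraries, of poly-T selected mRNA, and these were sequenced as paired-end reads. The submitters' processing notes name CASAVA 1.8, STAR and the build hg19; the counting tool, its use of strand and the annotation release are not given in the sources used here. The authors deposited FPKM for each gene and library, without pooling, beside a fixed gene length. FPKM multiplied by length fell on whole steps, 1 step size per library (within 0.01 for 100.0% of values), which gave fragments per gene; intervals from them cover counting error only.

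Genes with a mean of at least 1 FPKM were tested with limma 3.58.1 in R 4.3.3 on log2(FPKM + 1), with a variance trend (5.97 prior degrees of freedom), two-sided, without covariates, and adjusted by Benjamini-Hochberg over all genes. No count model was used as the main test because the deposited unit is FPKM. Ratios of 2 genes were compared by exact permutation over the 4 libraries. The limma code was run on simulated counts with few changed genes and a fixed dispersion. In the real data 50.8% of genes tested were called, so the simulation checks the code and not these calls. Promoter sequence came from RefSeq (GRCh38.p14) by symbol, and no coordinates were converted. NADK2, of 1 list, was not found by symbol or older symbol; 7 more listed genes were below the filter.

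The members and lists were chosen with earlier results of these data known. Named genes are all members and, from each list, the 2 called genes that rose most, the 2 that fell most (libraries not overlapping) and the most abundant, beside the 3 genes closest in pattern to the member that changed most; others are said to be named after their values were seen. Some genes that this rule names are not reported here. Alternatives were a pseudocount of 0.1, other filters and scalings, a replicate block, limma without trend or shared variance, limma voom on the recovered fragments and leaving out each library in turn.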

Additional observations from a re-analysis of the deposited data

How the results depend on the processing

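SRXN1, with at most 23 fragments in a library, was not tested. With 2 libraries a condition, calls rested on shared variance: without it 9 genes were higher and 4 lower over all genes in limma (4947 at an unadjusted p under 0.05), 0 members were called either way, and each list had 0 calls in each direction but for 1 glutathione gene called lower; the adjusted p was 0.0585 for TXNRD1 (0.21), 0.0651 for NQO1 (0.47) and 0.134 for SLC7A11 (-0.42). Without the filter 1844 genes were lower in place of 2869 and no member was (SLC7A11 -0.42); 1 NRF2 regulator was called lower, 2 thioredoxin genes higher and 2 lower, and 3 genes of superoxide and peroxide removal higher. With quantile normalization 1 member was called higher (TXNRD1 0.087, not called). HMOX1 was called with a mean of at least 5 FPKM (0.27, adjusted p = 0.0322 from limma) and with limma voom (0.295, adjusted p = 0.0238). KEAP1 was at -0.003 with median-ratio scaling.

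With the replicate number as a block, 2 members were called lower, since NFE2L2 (-0.14, adjusted p = 0.0321 from limma) was added, and HMOX1 (0.27, adjusted p = 0.00808) was called higher; over all genes 3466 were higher. The labels do not say that the numbers mark a shared culture. Same-numbered libraries deviated together only weakly (correlation 0.0777 across 12080 genes). Differences between replicates also hold counting error, so this cannot show whether a culture or batch was shared.

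With each library left out in turn, 2 to 3 members were called higher and 1 to 2 lower. The log2 fold change ranged from -0.249 to -0.037 for NFE2L2, from -0.022 to 0.043 for KEAP1 and from 0.13 to 0.41 for HMOX1. Called lower were 1 to 3 NRF2 regulators, 1 to 2 thioredoxin genes and 1 to 3 heme and iron genes; called higher were 2 to 5 thioredoxin genes and 10 to 16 xenobiotic targets. The cause of these moves was not tested. Of the other values, 312 kept their direction and their side of the threshold or, for counts, stayed within 1.5 times.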
